A study of Mus musculus with 6 samples.

Results

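Toll-like receptors are transmembrane receptors of innate immune cells that bind molecules of microbes. The 10 genes described here are Tlr1, Tlr2, Tlr3, Tlr4, Tlr5, Tlr6, Tlr7, Tlr8, Tlr9 and Tlr13, chosen by their names among 39089 genes of the deposited gene table, and all 10 were found there. They were measured by RNA sequencing of poly(A)-selected RNA from RAW264.7, a macrophage-like cell line derived from a mouse leukaemia, labelled wild type in every sample. All 6 libraries came from cells given lipopolysaccharide (LPS, an outer membrane component of Gram-negative bacteria) at 100 ng/mL for 48 h. The cells of 3 libraries additionally received LIPUS, which is pulsed ultrasound of low intensity, in 2 sessions separated by 24 h (25 min, 45 mW/cm2). No library without LPS was analysed here, so the response of these genes to LPS itself was not measured. The labels do not say whether the replicates were separate cultures, so p-values measure the spread between these libraries, which may be technical.

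The receptors fall into a cell-surface group and an endosomal group. On the cell surface, TLR4 binds LPS together with its partner MD-2, TLR2 pairs with TLR1 or TLR6 to bind lipopeptides, and TLR5 binds flagellin. In endosomes TLR3 senses double-stranded RNA, TLR7 and, in humans, TLR8 single-stranded RNA, TLR9 unmethylated CpG DNA, and TLR13, a receptor of mice that humans lack, bacterial ribosomal RNA. All except TLR3 signal through the adaptor MyD88, TLR3 signals through TRIF, and TLR4 uses both. In macrophages these pathways lead to NF-kB, AP-1 and interferon regulatory factors, which drive inflammatory and interferon genes.

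The libraries held 14171061 to 15956693 counts, of which 1282 to 1688 per library belonged to the 10 receptor genes. The 8 macrophage markers examined were all present, with a summed level of 10637 to 11184 CPM (the count scaled to a library of 1000000, on TMM-adjusted library sizes) in the LPS libraries and 9978 to 11608 CPM with LIPUS. The 4 epithelial markers had 0 counts. Summed B cell markers reached at most 0.606 CPM, T cell markers 0.138 CPM, dendritic cell markers 3.30 CPM and fibroblast markers 2.90 CPM, and for each of these lists the ranges of the sums overlapped between groups. Of these, Ms4a1 (B cell), Cd4 and Cd8a (T cell) and Siglech (dendritic cell) had 0 counts. The sums hide single markers, of which a pair with unadjusted p below 0.05 were named after their values were seen. Ptprc, which encodes the leukocyte antigen CD45, was higher in every LIPUS library, at 166 ± 5.22 and 184 ± 6.67 CPM (SD, n = 3 each, unadjusted p = 0.00774, adjusted p = 0.842 by edgeR's quasi-likelihood test). The collagen gene Col1a1, a fibroblast marker, was lower in every LIPUS library, at 1.12 ± 0.45 and 0.435 ± 0.21 CPM (SD, n = 3 each, unadjusted p = 0.00926, adjusted p = 0.890 by edgeR's quasi-likelihood test). Dcn, named as the other fibroblast marker tested, went the other way, at 1.17 ± 0.30 and 1.78 ± 0.67 CPM (SD, n = 3 each), with overlap. Its log2 fold change was 0.60 ± 0.35 (SE). The part of these markers in the receptor values was not tested. Most of the macrophage sum was Lyz2, the lysozyme gene, at 8187 ± 281 and 7908 ± 828 CPM.

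Most of the receptor message was Tlr2. On the TPM scale of the deposited table, which corrects for gene length and so allows levels of different genes to be compared, Tlr2 had a mean level of 26.6 over the 6 libraries and lay above 79.5% of the 20780 genes with a count. Tlr4 followed at 5.27, Tlr1 at 4.56, Tlr7 at 4.46 and Tlr6 at 4.15 TPM. The ranges of these 4 genes over the libraries overlapped. They were 4.35 to 5.95 TPM for Tlr4, 4.23 to 5.25 for Tlr1, 3.45 to 5.29 for Tlr7 and 3.40 to 4.83 for Tlr6. Within each library Tlr4 was the highest of the 4, though only at 4.35 against 4.32 TPM for Tlr1 in LIPUS library 2. The order of Tlr1, Tlr7 and Tlr6 differed between libraries and is not resolved. Tlr13 had a mean of 2.90 TPM with a range of 1.85 to 3.94, which overlapped with those of Tlr6 and Tlr7 above it. It also overlapped with that of Tlr9 below it, at a mean of 1.87 TPM and a range of 1.54 to 2.23. Within each library Tlr13 was below Tlr6 and Tlr7, though only at 3.94 against 3.96 TPM for Tlr6 in LIPUS library 3. In LPS library 3 it was also below Tlr9, at 2.20 against 2.23 TPM. Tlr3 was lower again at 0.275 TPM, with no library above 0.419. Tlr8 (chromosome X, 167241123 to 167264329, minus strand) had 1 count in all 6 libraries together and Tlr5 (chromosome 1, 182954752 to 182976044, plus strand) had 0 in each. A count of 0 allows up to 3 counts, or 0.190 to 0.210 CPM per library, so neither gene was detectable above that level. Tlr11 and Tlr12, the other mouse Toll-like receptor genes, also had 0 counts in every library.

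**Figure D1:**
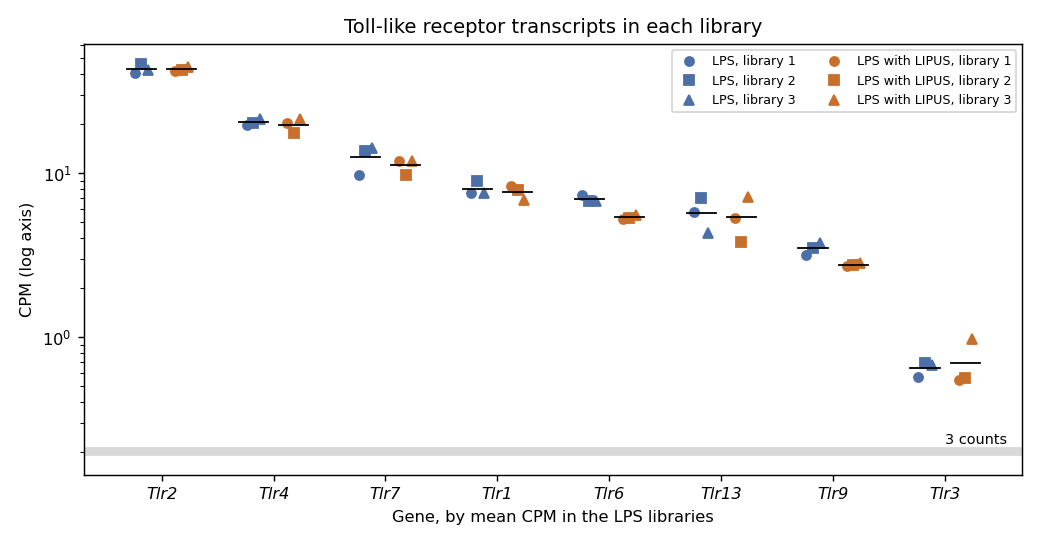
CPM of each of the 8 Toll-like receptor genes with more than 3 counts (log axis), by library, with LPS libraries in blue, LPS with LIPUS libraries in orange, one symbol per replicate number and a line at each group mean. The groups are apart for Tlr6 and Tlr9 and overlap for the other 6 genes; the grey band is the level of 3 counts, and Tlr5 and Tlr8 lie below it.

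Within the summed TPM of the receptors, Tlr2 held 51.9% ± 0.45 in the LPS libraries and 54.5% ± 1.65 with LIPUS (SD, n = 3 each), and its share was lower in each LPS library than in any LIPUS library. The Tlr6 share was 9.13% ± 0.96 and 7.45% ± 0.27, and that of Tlr9 4.05% ± 0.34 and 3.40% ± 0.11 (SD, n = 3 each), again without overlap between the groups. For Tlr1, Tlr4, Tlr7 and Tlr13 the shares overlapped. Shares within a library depend on each other, since a lower level of 1 gene raises the shares of the rest. The Tlr2 TPM itself was 26.5 ± 2.31 and 26.7 ± 2.09 (SD, n = 3 each), with overlap. The endosomal receptors together held 19.4% ± 1.19 of the receptor TPM with LPS and 18.3% ± 2.06 with LIPUS, a difference smaller than the spread between libraries. The summed TPM of all 10 genes was 51.1 ± 4.15 and 49.1 ± 5.04 (SD, n = 3 each), which also overlapped.

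**Figure D2:**
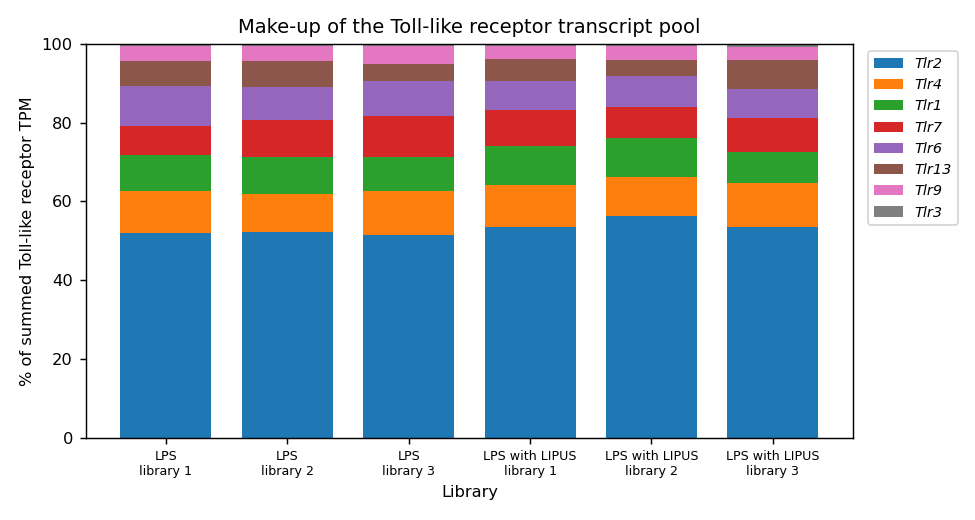
Share of the summed Toll-like receptor TPM held by each gene (percent, stacked from 0), in each of the 6 libraries. Tlr2 holds more than all others together in every library, from 51.5% in LPS library 3 to 56.4% in LIPUS library 2.

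Setting the libraries with ultrasound against those without asks whether the receptor transcripts differ between them. The mean of Tlr6 was 6.92 ± 0.34 CPM in LPS and 5.36 ± 0.15 CPM in LIPUS libraries, and that of Tlr9 3.48 ± 0.29 and 2.76 ± 0.06 CPM (SD, n = 3 each), each lower in every LIPUS library than in any LPS library. Neither passed the test over all genes. The other receptors overlapped between the groups. Of the 10 genes 7 passed the filter on low counts and were tested, and 0 of 7 had an adjusted p below 0.05 by edgeR's quasi-likelihood test, where 0% of the 12571 genes tested did. At an unadjusted p below 0.05, 1 of the 7 (Tlr6) was lower with LIPUS and 0 were higher, and 1.61% of all tested genes were lower at that level (579 genes in either direction). DESeq2 and limma-voom also called 0 of the receptor genes, and 0 of all 20780 and 12571 genes they tested. For Tlr6 the unadjusted p was 0.0741 by DESeq2's Wald test and 0.0249 by limma-voom, so whether it is below 0.05 depends on the test. In 2 of the 7 (Tlr6 and Tlr9) the CPM of the groups did not overlap and were lower with LIPUS, against 4.63% of all tested genes. All 7 log2 fold changes were negative, against 52.4% of all tested genes. Of the same 7 genes, 4 were negative with LPS library 2 left out, 5 with LIPUS library 2 left out, and 6 with LIPUS library 1 or LIPUS library 3 left out. The median log2 fold change was -0.08 over the 7 genes and -0.01 over all tested genes.

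**Figure D3:**
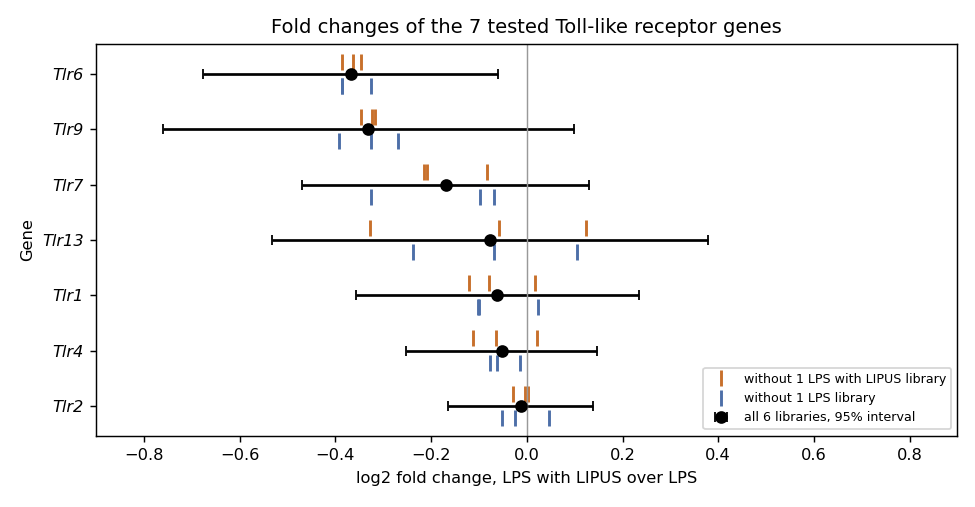
log2 fold change (with LIPUS over without) of the 7 tested genes, with points and 95% intervals from all 6 libraries and short marks for the values with 1 library left out. The interval of Tlr6 lies below 0, from -0.68 to -0.06, and those of the other 6 genes span 0; leaving out 1 library moves Tlr13 between -0.33 and 0.12.

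Tlr2 (mm10, chromosome 3, 83836272 to 83841824, minus strand), the shared partner of the lipopeptide receptors, was counted 642, 733 and 629 times under LPS and 620, 604 and 638 times under LIPUS, in the order of the replicate numbers, as in all such series of values here. The groups overlapped, at 43.2 ± 2.96 against 42.9 ± 1.05 CPM (SD, n = 3 each). The log2 fold change was -0.01 ± 0.07 (SE). Its 95% interval was 0.892-fold to 1.10-fold, the narrowest of the tested receptors.

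Tlr6 (chromosome 5, 64953092 to 64970942, minus strand), the partner that with TLR2 recognises diacylated lipopeptides, was counted 115, 106 and 100 times under LPS and 77, 76 and 80 times under LIPUS. These were 7.31, 6.73 and 6.73 CPM against 5.24, 5.33 and 5.53 CPM. Every LIPUS library was below every LPS library. The fold was 0.775 (95% interval 0.625 to 0.960), a log2 fold change of -0.37 ± 0.15 (SE, unadjusted p = 0.0217, adjusted p = 0.999 by edgeR's quasi-likelihood test), and by that p it ranked 259 among the 12571 tested genes. The libraries of a group lay close together: the coefficient of variation was 4.88% in LPS and 2.76% in LIPUS, while counting error alone gives 10.4% at its mean of 92.3 counts. With any single library left out, the log2 fold change was -0.39 to -0.33, with unadjusted p from 0.0330 to 0.0706. In such RNA from whole cultures, fewer cells with the message and less message per cell cannot be told apart.

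Tlr1 (chromosome 5, 64924680 to 64933600, minus strand), the partner for triacylated lipopeptides, was counted 119, 140 and 112 times under LPS and 122, 112 and 99 times under LIPUS. The groups overlapped, at 7.57, 8.89 and 7.54 CPM against 8.30, 7.85 and 6.84 CPM. Its log2 fold change was -0.06 ± 0.14 (SE), and the 95% interval ran from -0.36 to 0.23. The TPM ratio of Tlr2 to Tlr6 was 5.11, 6.33 and 5.75 under LPS and 7.37, 7.27 and 7.30 under LIPUS, without overlap. The TPM ratio of Tlr2 to Tlr1 was 5.74 ± 0.20 and 5.98 ± 0.76 (SD, n = 3 each), and overlapped. That of Tlr1 to Tlr6 was 1.00 ± 0.13 and 1.24 ± 0.15 (SD, n = 3 each), and overlapped too.

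Tlr1 and Tlr6 are neighbours on chromosome 5, with 19491 bases and no other deposited gene between them, and parts of their coding sequences are identical, so the authors' counting could have split or dropped reads that match both. In the GENCODE M21 transcripts (GRCm38) the longest exact run shared by the coding sequences is 229 bases, while no other pair of the 10 genes shared more than 16. Exact runs of at least 50 bases made up 30.9% of the Tlr6 coding sequence, and 6.13% of its windows of 150 bases, the read length, occur unchanged in Tlr1. The longest shared run is shown in capitals with 20 bases on each side, since a read inside it fits both genes, and in paired reads its mate would have to tell them apart.
Tlr1 coding sequence, chr5:64925517-64925785, minus strand: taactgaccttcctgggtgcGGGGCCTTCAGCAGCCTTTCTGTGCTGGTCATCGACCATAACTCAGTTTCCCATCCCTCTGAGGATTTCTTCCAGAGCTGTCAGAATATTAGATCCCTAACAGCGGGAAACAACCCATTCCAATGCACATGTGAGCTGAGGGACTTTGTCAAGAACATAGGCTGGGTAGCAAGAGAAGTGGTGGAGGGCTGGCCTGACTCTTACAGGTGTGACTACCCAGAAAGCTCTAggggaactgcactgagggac
Tlr6 coding sequence, chr5:64953808-64954076, minus strand: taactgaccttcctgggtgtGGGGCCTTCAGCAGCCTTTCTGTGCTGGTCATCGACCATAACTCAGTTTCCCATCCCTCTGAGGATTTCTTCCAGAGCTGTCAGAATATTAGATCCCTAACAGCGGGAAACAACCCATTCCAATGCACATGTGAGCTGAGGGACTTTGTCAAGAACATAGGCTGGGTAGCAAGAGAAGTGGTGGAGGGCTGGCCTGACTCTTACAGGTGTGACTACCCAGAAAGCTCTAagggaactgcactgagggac

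With the counts of Tlr1 and Tlr6 summed into 1 feature, a fit added after the values were seen, the libraries had 234, 246 and 212 counts with LPS and 199, 188 and 179 with LIPUS. The log2 fold change of the sum was -0.20 ± 0.10 (SE, unadjusted p = 0.0745, adjusted p = 0.999 by edgeR's quasi-likelihood test), and the groups did not overlap. Tlr6 also overlaps Fam114a1 on the opposite strand by 868 bases at its 5′ end, and Fam114a1 is named for this overlap, after its values were seen. Fam114a1 was at 19.6 ± 1.18 and 20.1 ± 1.78 CPM (SD, n = 3 each), with overlap, and its log2 fold change was 0.03 ± 0.10 (SE). No source used here says whether reads were counted by strand, and the part of Fam114a1 in the Tlr6 difference was not tested.

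Tlr4, the LPS receptor (chromosome 4, 66827551 to 66846581, plus strand), was counted 310, 316 and 318 times under LPS and 295, 250 and 309 times under LIPUS. Its CPM were 19.7, 20.1 and 21.4 against 20.1, 17.5 and 21.3, so only LIPUS library 2 was below the LPS range. The log2 fold change was -0.05 ± 0.10 (SE), with a fold of 0.964 (95% interval 0.839 to 1.11). Its partner genes, whose values were looked up after the results were seen, overlapped as well: Cd14, which hands LPS to the receptor, had 551 ± 37.9 and 536 ± 14.7 CPM, and Ly96, which encodes MD-2, 4.29 ± 0.65 and 4.26 ± 0.28 CPM (SD, n = 3 each).

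Among the endosomal receptors Tlr9, the receptor for CpG DNA (chromosome 9, 106222598 to 106226876, plus strand), was counted 50, 55 and 56 times under LPS and 40, 39 and 41 times under LIPUS. These were 3.18, 3.49 and 3.77 CPM against 2.72, 2.73 and 2.83 CPM, with no overlap. The fold was 0.795 (95% interval 0.591 to 1.07), a log2 fold change of -0.33 ± 0.20 (SE, unadjusted p = 0.121, adjusted p = 0.999 by edgeR's quasi-likelihood test). As for Tlr6, the spread within groups was small, with a coefficient of variation of 8.45% and 2.20% where counting error alone gives 14.6% at a mean of 46.8 counts. With any single library left out, the log2 fold change was -0.39 to -0.27.

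Tlr7, a receptor for single-stranded RNA (chromosome X, 167303380 to 167330574, minus strand), had 153, 216 and 212 counts with LPS and 175, 139 and 171 with LIPUS. LPS library 1, at 9.73 CPM, was at the level of the lowest LIPUS library, 9.74 CPM, while the other 2 LPS libraries, at 13.7 and 14.3 CPM, were above all 3 LIPUS libraries. The log2 fold change was -0.17 ± 0.14 (SE) with a 95% interval of -0.47 to 0.13, and it was -0.33 without LPS library 1 and -0.07 without LPS library 3. Tlr7 lies 39050 bases from Tlr8 on the same strand, and Tlr8 had 1 count, in LIPUS library 3.

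Tlr13, the receptor for bacterial ribosomal RNA (chromosome X, 106143275 to 106160493, plus strand), varied most within groups among the tested receptors. It had 91, 111 and 64 counts with LPS and 78, 54 and 104 with LIPUS, so the lowest and the highest CPM, 3.79 and 7.18, were both in LIPUS libraries. The coefficient of variation was 24.0% and 31.4%, where counting error gives 10.9%. The log2 fold change was -0.08 ± 0.22 (SE), and it was 0.12 when LIPUS library 2 was left out and -0.33 when LIPUS library 3 was. Tlr3 (chromosome 8, 45395665 to 45411075, minus strand), the receptor for double-stranded RNA, was below the filter, with 9, 11 and 10 counts against 8, 8 and 14. The ratio of its summed counts, 30 in each group, was 1.07 after scaling, with an exact 95% counting interval of 0.621 to 1.83.

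The deposited transcript table lists 50 transcripts of the 10 genes, of which 28 passed the filter; a read can count for several of them, so they are not separate measurements. The 5 Tlr6 transcripts had log2 fold changes of -0.35 to -0.26, the 8 of Tlr7 -0.18 to -0.15, and the 9 of Tlr1 -0.12 to 0.00. Of the 28, 0 had an adjusted p below 0.05 by edgeR's quasi-likelihood test, where 0% of 52257 transcripts did (2814 had an unadjusted p below 0.05). By that test a single Tlr6 transcript had an unadjusted p below 0.05, at 0.0322, and the other Tlr6 transcripts had 0.0656 to 0.118. All 5 were nearer 0 than the -0.37 of the gene. The 3 Tlr2 transcripts lay between -0.07 and -0.01.

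**Figure D4:**
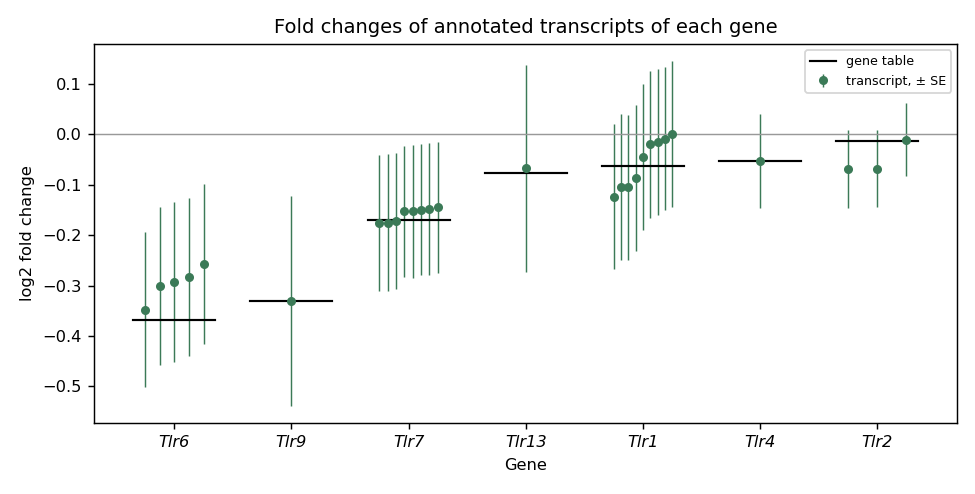
log2 fold change (with LIPUS over without, ± SE) of each tested transcript as a point, by gene, with a black line at the value from the gene table. All 5 Tlr6 transcripts and the 1 Tlr9 transcript lie below -0.25, and those of Tlr1 spread around the gene's own value.

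The authors list 351 genes as changed, where the deposited gene table holds 39089, and none of the 10 receptor genes is among them. With so small a share listed, that says little about the receptors. The rule behind the listing was not examined here. The authors' deposited table gives Tlr6 a log2 fold change of -0.37 with an unadjusted p = 0.00925, and Tlr9 -0.33 with p = 0.0868.

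The promoter sequences of 4 receptors are shown because Tlr2 was the most abundant, Tlr6 and Tlr9 had the lower values with LIPUS, and Tlr5 was not detected. They are the 250 bases before transcript starts that the RefSeq promoter table lists for GRCm38.p6, with 10 starts for 8 of the receptor genes; both starts of Tlr6 are given. A listed start need not be the outermost one of the gene. The Tlr9 start is that of the deposited gene, but the Tlr2 start lies 216 bases and the Tlr5 start 36 bases inside the deposited gene, so as many bases of their stretches do too. The Tlr6 starts lie 11776 and 10894 bases inside the deposited gene, and both stretches are wholly within it. The nearest GENCODE M21 transcript start was 881 bases from the first Tlr6 start and 1 base from the other. Capitals mark matches on either strand to 5 motifs. These were GAGGAA, the core of sites for PU.1 and other ETS factors, GGGNNTTCC, a form of NF-kB site, TGANTCA, the AP-1 site, GAAANNGAA, a form of the interferon response element, and TGACG, a short form of the CREB site.
Tlr2 promoter, chr3:83841609-83841858, minus strand: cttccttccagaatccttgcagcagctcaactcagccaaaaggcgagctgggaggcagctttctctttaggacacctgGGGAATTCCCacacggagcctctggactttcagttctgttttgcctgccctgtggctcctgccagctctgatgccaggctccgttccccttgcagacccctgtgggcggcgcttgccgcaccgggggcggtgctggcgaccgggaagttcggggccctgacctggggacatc
Tlr6 promoter, chr5:64959167-64959416, minus strand: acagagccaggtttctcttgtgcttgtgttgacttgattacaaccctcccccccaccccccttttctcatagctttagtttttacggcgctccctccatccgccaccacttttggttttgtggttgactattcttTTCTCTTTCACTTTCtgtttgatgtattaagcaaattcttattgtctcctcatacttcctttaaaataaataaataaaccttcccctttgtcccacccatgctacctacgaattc
Tlr6 promoter, chr5:64960049-64960298, minus strand: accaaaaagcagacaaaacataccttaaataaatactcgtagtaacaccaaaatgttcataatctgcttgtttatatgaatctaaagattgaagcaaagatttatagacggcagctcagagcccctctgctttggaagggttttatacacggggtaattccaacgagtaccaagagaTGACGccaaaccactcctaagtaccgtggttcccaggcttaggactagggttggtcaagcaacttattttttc
Tlr9 promoter, chr9:106222348-106222597, plus strand: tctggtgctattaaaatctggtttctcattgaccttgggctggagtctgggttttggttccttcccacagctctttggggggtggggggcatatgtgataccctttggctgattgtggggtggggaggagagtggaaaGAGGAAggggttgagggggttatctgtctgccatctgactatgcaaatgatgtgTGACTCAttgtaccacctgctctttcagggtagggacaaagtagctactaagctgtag
Tlr5 promoter, chr1:182954538-182954787, plus strand: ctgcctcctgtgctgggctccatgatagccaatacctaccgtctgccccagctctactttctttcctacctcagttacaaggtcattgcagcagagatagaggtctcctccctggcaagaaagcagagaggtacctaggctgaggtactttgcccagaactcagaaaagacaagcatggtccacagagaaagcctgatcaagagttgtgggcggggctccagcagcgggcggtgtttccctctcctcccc

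In Tlr2 the NF-kB form matched on both strands at overlapping positions, from -172 to -163 relative to the listed start, which is inside the deposited gene. Before the first Tlr6 start the interferon form matched at 2 overlapping positions, from -115 to -101, and before the other TGACG matched at -73. In Tlr9 GAGGAA matched at -112 and TGANTCA at -58, and in Tlr5 none of the 5 motifs matched in this window. Of the 8 receptor genes with a promoter, GAGGAA was found in 4 (Tlr1, Tlr8, Tlr9 and Tlr13), the interferon form in 2 (Tlr6 and Tlr8), TGACG in 2 (the other Tlr6 start and Tlr13), the NF-kB form in 1 and TGANTCA in 1. Of all 32851 promoters of the same length in the table, 23.3% held GAGGAA, 4.98% GGGNNTTCC, 6.75% TGANTCA, 7.13% GAAANNGAA and 17.8% TGACG. Counted in the same way by promoter, 4 of the 10 receptor promoters held GAGGAA, 1 GGGNNTTCC, 1 TGANTCA, 2 GAAANNGAA and 2 TGACG. A match is a description of the letters and says nothing of whether a factor binds there.

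The genes around the receptors were described from 5 lists. None of their members had an adjusted p below 0.05 by edgeR's quasi-likelihood test, and neither had any of the 12571 genes tested. The counts of negative log2 fold changes below stand beside 52.4% of all tested genes. In the list of chaperones and trafficking factors, 12 of 12 genes were tested and 9 had a negative log2 fold change, with a median of -0.04. Its members with the smallest p were Rnf170, a ubiquitin ligase gene, at 0.26 ± 0.17, and Cnpy3, a chaperone of several Toll-like receptors, at -0.10 ± 0.07 (log2 fold change ± SE). Unc93b1, which carries the endosomal receptors to their compartment and is named after its value was seen, had 337 ± 13.5 and 325 ± 12.6 CPM (SD, n = 3 each), with overlap.

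Among the co-receptors and relatives, 5 of 6 genes were tested and 4 were negative, with a median of -0.04. The scavenger receptor gene Cd36, whose product serves the TLR2 and TLR6 pair as a co-receptor, was at 0.16 ± 0.10, and Ly86, the MD-1 partner of CD180, at -0.15 ± 0.09. Lbp, which encodes the LPS-binding protein and is named as the one gene of the list not tested, had 0 counts. Of 10 tested genes for receptor and ligand processing in endolysosomes 7 were negative, with a median of -0.02. Dnase2a, which degrades DNA in lysosomes, had 86.8 ± 2.33 and 80.0 ± 1.46 CPM without and with LIPUS (SD, n = 3 each). This is a log2 fold change of -0.12 ± 0.05 (SE, unadjusted p = 0.0406, adjusted p = 0.999 by edgeR's quasi-likelihood test). Rnaset2a, which cuts RNA there, was at 0.13 ± 0.07, a value that is uncertain because 58.9% of the windows of 150 bases in its longest GENCODE M21 transcript occur unchanged in that of Rnaset2b.

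Of the 12 adaptors and proximal kinases, all tested, 9 were negative, with a median of -0.03. Ticam1, which encodes the adaptor TRIF, was at -0.12 ± 0.06 and Irak1, a kinase recruited through MyD88, at -0.08 ± 0.06. Of the 8 inhibitors 4 were negative, with a median of -0.01. Socs1, a suppressor of cytokine signalling, was at 0.34 ± 0.26 and Inpp5d, which encodes the phosphatase SHIP1, at -0.07 ± 0.05.

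**Figure D5:**
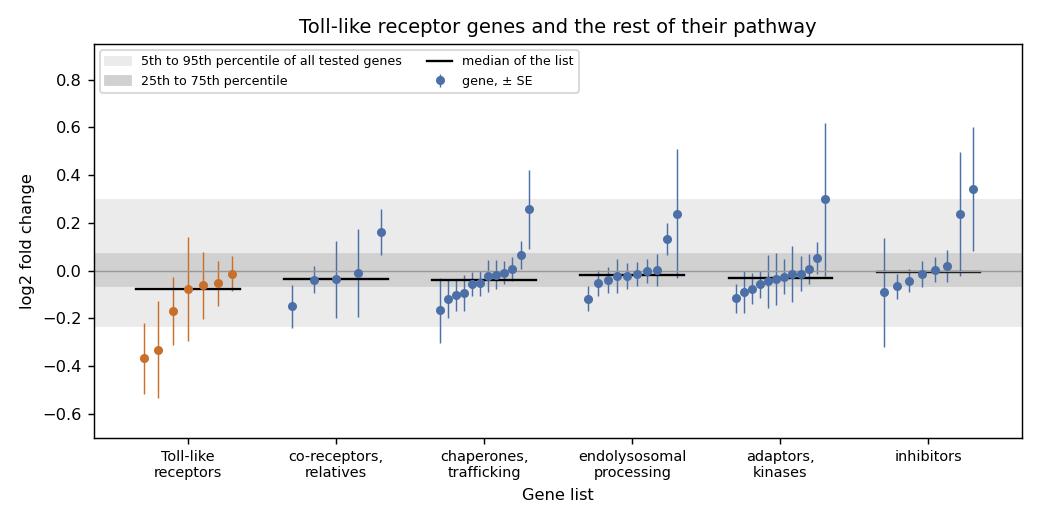
log2 fold change (with LIPUS over without, ± SE) of each tested gene in the Toll-like receptor list (orange) and 5 lists of the pathway (blue), with a line at each list's median and grey bands for the middle of all 12571 tested genes. Tlr6 and Tlr9 lie below the 5th percentile of all tested genes, -0.23, and the medians of the 6 lists lie between -0.08 and -0.01. The SE of Tlr6 and Tlr9, 0.15 and 0.20, are larger than the median SE of all tested genes, 0.09.

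The genes whose CPM profile was most like that of Tlr6 were sought over the 6 libraries, by the root mean square difference between log2 CPM profiles centred on their own means. Among 10479 genes with a mean of at least 3.07 CPM, the nearest were Tbc1d25, Zfp46 and Tmem218, at 0.067 to 0.070, where the median gene was at 0.206. Their log2 fold changes were -0.29, -0.26 and -0.33. The choice used the same 6 libraries, so fold changes near that of the receptor gene follow from it, here and for Tlr2 below. The nearest receptor gene was Tlr9, at 0.110 and rank 52. For Tlr2 the nearest of 8604 genes with a mean of at least 10 CPM were Cul9, Scamp4 and Lgals3bp, at 0.013 to 0.017, with log2 fold changes of 0.00, -0.01 and -0.01. Of the other receptor genes only Tlr4 and Tlr7 reached that mean and were compared, and Tlr4 was the nearer, at rank 4540.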

How the data were processed

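RNA was measured in 6 libraries, which the labels divide into 3 given LPS and 3 given LPS and LIPUS. Per the labels' protocols, poly(A) RNA was fragmented and sequenced as paired-end reads of 150 bases. Named in the submitters' processing notes are bcl2fastq and mm10, the genome build; aligner, counting tool, annotation release and strand setting are not given in the sources. The authors deposited raw counts of reads for genes, the length of each gene, and raw counts for transcripts. The deposited TPM equals the count over the length, scaled to a total of 1000000 per library. The authors' deposited comparison gives a log2 fold change and an unadjusted p-value per gene, whose test the files do not state. A further 30 deposited columns of per-library values were not used.

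Counts were tested with edgeR 4.0.16's quasi-likelihood test in R 4.3.3, two-sided, with TMM scaling and only the group in the model, adjusted by Benjamini-Hochberg over all 12571 genes that passed filterByExpr (minimum count 10), at a threshold of 0.05. Standard errors and 95% intervals come from that fit, and counting intervals and floors cover counting error only. The biological coefficient of variation was 5.84%. Transcripts were fitted the same way. The fit was tested on simulated data. Alternatives were DESeq2 1.42.0, limma 3.58.1 (voom, and trend on log2(TPM + 1) or log2(TPM + 0.1)), other scalings and filters, a replicate block, and 6 fits that each lack 1 library. The receptor genes, lists and motifs were chosen with earlier results of these data known. All receptor genes are named, the 2 genes of each pathway list with the smallest p, and, for the receptor gene with the smallest p and the most abundant one, the 3 genes with the nearest profile; others are marked where they appear. Coordinates are the deposited ones (1-based), which for all 10 genes equal those of RefSeq on GRCm38.p6, the assembly of mm10.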

Additional observations from a re-analysis of the deposited data

How the results depend on the processing

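No receptor gene passed the adjusted threshold of 0.05 under any alternative run, and Tlr6, Tlr9 and Tlr7 kept a negative log2 fold change in all 16 settings, the reported one included. Outside the fits that leave out a library, Tlr6 ranged from -0.37 to -0.28 and Tlr9 from -0.33 to -0.20, the values nearest 0 on the log2(TPM + 1) scale, which understates changes of low genes. Tlr2, near 0, turned positive on both TPM scales (0.0087 with a pseudocount of 1 and 0.0090 with 0.1). Leaving out 1 library gave -0.12 to 0.023 for Tlr1, -0.052 to 0.046 for Tlr2, -0.11 to 0.022 for Tlr4 and -0.33 to 0.12 for Tlr13, and 4 to 7 receptor genes were negative among the 7 or 8 that then passed the filter. The count of all genes past the threshold was 31 with no filter, 5 with the replicate block and 0 to 6 with 1 library left out; for transcripts it was 242, 11 and 0 to 10. The cause was not tested. With no length correction the shares were 43.9% for Tlr2, 20.4% for Tlr4, 12.0% for Tlr7, 6.25% for Tlr6 and 3.17% for Tlr9.

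The deviations of libraries with the same replicate number had correlations across genes of -0.10 to 0.00, against -0.08 to 0.09 for libraries with unlike numbers. With 3 libraries per group, these values cannot show whether a shared number stands for a shared culture or batch. With the replicate block Tlr6 was at -0.37 (unadjusted p = 0.0355, adjusted p = 0.999), and 0 receptor genes passed. Depth limits Tlr3, at 8 to 14 counts per library, and Tlr5 and Tlr8, which were not detectable above 3 counts.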
